A study of Mus musculus with 137 samples.

Results

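The expression of 10 inducible epithelial defense genes was examined in the crypts and villi of the mouse duodenum: the secreted lectins Reg3a, Reg3b, Reg3g, and Reg1, the oxidase Duox2 and its maturation factor Duoxa2, the nitric oxide synthase Nos2, the siderophore-binding lipocalin Lcn2, the acute phase protein Saa1, and the scavenger receptor Dmbt1. These genes were taken by symbol from the 21450 genes measured, and 16 of the 30146 probes carried one of the 10 symbols. Genes with more than 1 probe were represented by the probe counted most over all libraries. All 10 representative probes were among the 26365 probes (19020 genes) that passed the filter on low counts. Wild-type female B6C3F1 mice drank water with 0, 0.1, 1.4, 5, 20, 60, or 180 ppm of hexavalent chromium [Cr(VI)] for 7 or 90 days, with sodium dichromate dihydrate as the source, and the mice at 0 ppm are called untreated. Crypts and villi were scraped separately from sections of fixed, paraffin-embedded duodenum, and their RNA was measured by TempO-Seq, in which pairs of probes are ligated on a transcript and sequenced. There were libraries from 71 mice, 71 from crypts and 66 from villi, and 66 mice gave both. The 28 groups of compartment, day, and concentration held 5 libraries each, apart from 6 at 0.1 ppm in the crypt after 7 days and 4 in 4 groups of villi, those at 5, 20, and 180 ppm after 7 days and the untreated ones after 90 days. Total counts ran from 1463938 to 7199801 per library. Levels are given in CPM, the counts of each library scaled to the same total after scaling by the trimmed mean of M-values, and are compared only within a gene because probes differ in efficiency. In scraped tissue, fewer cells of a type and less RNA per cell cannot be told apart.

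The epithelium of the small intestine keeps microbes at a distance with secreted proteins and reactive molecules whose genes respond to bacteria and to cytokines. Reg3b and Reg3g are lectins released by enterocytes and Paneth cells, and their induction runs through Toll-like receptor signaling by way of MyD88 and through interleukin-22 acting on STAT3. Duox2 makes hydrogen peroxide at the apical surface, Nos2 makes nitric oxide, Lcn2 withholds bacterial siderophores, Saa1 rises with inflammation and contact with bacteria, and Dmbt1 binds bacteria in the mucus layer. Reg1 is a related lectin with trophic activity that is also abundant in the pancreas.

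In the GRCm38 annotation the 4 Reg genes lie in a cluster with Reg2 and Reg3d that spans 98.2 kb (chr6:78370657-78468872), and Duox2 and Duoxa2 lie head to head on chromosome 2, with 450 bases between their starts (chr2:122298450-122298899). Lcn2 lies at chr2:32384633-32388252, Nos2 at chr11:78920787-78960254, Saa1 at chr7:46740497-46742980, and Dmbt1 at chr7:131032053-131121630. Sequences and coordinates of the probes were not used here. Promoter sequences of 8 of the 10 genes were matched in RefSeq (GRCm38.p6), and those of the 4 Reg genes are shown because the changes called in the crypt after 90 days all fell on these neighbors. Each runs from 250 bases before the start of transcription through the first 50 bases of the gene, at chr6:78380459-78380758 (plus strand), chr6:78370635-78370934 (plus strand), chr6:78425733-78426032 (plus strand), and chr6:78468825-78469124 (minus strand). The starts used for Reg3b and Reg1 lie within the genes as Ensembl annotates them. Capitals mark matches on either strand to the STAT motif TTCNNNGAA, the TATA motif TATAAA, and the NF-kappaB consensus.
Reg3a: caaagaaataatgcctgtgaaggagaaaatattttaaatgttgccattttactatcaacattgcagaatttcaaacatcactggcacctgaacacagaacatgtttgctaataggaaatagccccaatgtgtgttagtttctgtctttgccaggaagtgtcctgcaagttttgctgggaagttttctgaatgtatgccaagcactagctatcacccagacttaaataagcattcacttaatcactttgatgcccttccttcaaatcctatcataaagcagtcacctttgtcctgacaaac
Reg3b: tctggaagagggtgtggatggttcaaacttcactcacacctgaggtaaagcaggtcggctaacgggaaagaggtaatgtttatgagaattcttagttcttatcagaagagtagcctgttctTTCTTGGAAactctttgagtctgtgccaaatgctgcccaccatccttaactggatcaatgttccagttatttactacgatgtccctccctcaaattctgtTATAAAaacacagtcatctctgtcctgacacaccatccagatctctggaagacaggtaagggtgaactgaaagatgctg
Reg3g: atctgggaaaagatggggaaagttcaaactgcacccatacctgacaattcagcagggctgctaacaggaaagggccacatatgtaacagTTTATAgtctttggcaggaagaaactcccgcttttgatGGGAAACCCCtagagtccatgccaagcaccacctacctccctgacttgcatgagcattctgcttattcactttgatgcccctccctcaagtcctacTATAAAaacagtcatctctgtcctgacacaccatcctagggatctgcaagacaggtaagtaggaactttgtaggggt
Reg1: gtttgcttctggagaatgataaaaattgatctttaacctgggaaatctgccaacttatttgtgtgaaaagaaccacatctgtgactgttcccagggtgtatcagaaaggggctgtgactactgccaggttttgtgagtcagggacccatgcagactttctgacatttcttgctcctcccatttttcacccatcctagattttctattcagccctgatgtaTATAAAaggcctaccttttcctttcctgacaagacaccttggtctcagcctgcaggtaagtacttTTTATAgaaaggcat
The STAT motif was found in 8.30% of the 32851 promoters of this length, and of the 4 Reg genes Reg3b held it, as TTCTTGGAA at position -129. The NF-kappaB consensus was found in 8.46% of promoters and in Reg3g at -123. TATAAA, in 13.6% of promoters, stood at -29 in Reg3b, -27 in Reg3g, and -30 in Reg1, whereas Reg3a held none of the 3 motifs. The promoters of Reg3b and Reg3g were identical at 69.9% of aligned bases, those of Reg3a and Reg3g at 73.9%, and those of Reg3a and Reg3b at 68.3%. The transcript of Saa1 matched that of Saa2 at 94.4% of aligned bases, with an identical run of 76 bases, so counts of Saa1 may include Saa2.

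The libraries were first checked against markers of their tissue, because those of mouse 447 (60 ppm, 7 days) stood apart. Fabp6, a bile acid binding protein of the distal small intestine, reached 6779 CPM in its crypt library and 19907 CPM in its villus library, against at most 9.79 CPM in the other 135 libraries. The distal bile acid transporter Slc10a2 was at 169.6 and 816 CPM (at most 15.1 elsewhere). Gata4, a transcription factor of the proximal small intestine, was at 0 counts in both, and no other library had 0. The proximal enterocyte gene Adh1 was at 10.1 and 31.1 CPM, against at least 406 CPM elsewhere. Both libraries of mouse 447 carried transcripts of the distal small intestine and held less of each of the 4 duodenal genes read (Gata4, Adh1, Rbp2, and Fabp1) than any other library, and results that rest on them are given with and without them. The markers of crypt and villus also went against the labels in a pair of untreated mice at 7 days. The 6 crypt markers summed to 11545 CPM in the villus library of mouse 48 and to 1424 CPM in the crypt library of mouse 49. The former was the highest of the 5 untreated villus libraries at 7 days (median 3208 CPM) and the latter the lowest of the 5 crypt libraries (median 9393 CPM). The crypt library of mouse 48 held 9393 CPM of these markers and the villus library of mouse 49 held 1295 CPM. In crypt and villus, the villus markers summed to 4848 and 5113 CPM in mouse 48 and to 8971 and 8697 CPM in mouse 49. Untreated villus libraries at 90 days were shallow, with a median total of 2172693.5 counts against 4000110 at 180 ppm.

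**Figure D1:**
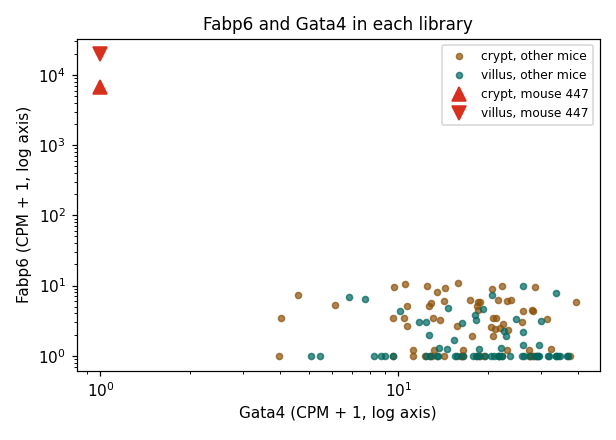
Fabp6 (vertical, CPM + 1, log axis) against Gata4 (horizontal, CPM + 1, log axis) in each of the 71 crypt and 66 villus libraries, with crypts in brown, villi in green, and mouse 447 as red triangles. Both libraries of mouse 447 lie at high Fabp6 and at a Gata4 of 0, away from the other 135.

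Against the untreated group of the same compartment and day, more changes of the members were called after 90 than after 7 days. Each compartment and day gave 60 tests (10 genes at 6 concentrations), and the adjusted p (edgeR's quasi-likelihood test with Benjamini-Hochberg adjustment over all probes) was held to a threshold of 0.1, which also serves the other tests. In the crypt after 90 days 4 tests passed, all lower, against 2.15% of all probe tests. In the villus after 90 days 8 passed as higher and 2 as lower, against 9.38% of all probe tests. After 7 days 2 passed in the villus, both at 60 ppm and higher (6.39% of probes at that concentration), against 2.29% over the 6 concentrations, and both were lost without mouse 447. In the crypt after 7 days 0 of 60 passed, against 0.766% (6 at an unadjusted p under 0.05, and 2 in DESeq2, both for Saa1 with the exposed libraries at 0 counts). In the crypt after 7 days 0 members had a trend over concentration in this edgeR fit, where 8.67% of probes did (3 at an unadjusted p under 0.05, 2 in DESeq2, 2 in the newer form of the edgeR fit, Reg3a and Duox2, and 1 in a separate fit, Reg3a). By concentration, from 0.1 to 180 ppm, the share of probes that passed in the crypt after 7 days was 0.00379%, 0.00379%, 0.00379%, 0.129%, 1.35%, and 3.11%, and in the villus after 7 days it was 0%, 0.998%, 0.368%, 1.26%, 6.39%, and 4.73%. It was 0%, 0%, 0%, 0.216%, 8.89%, and 3.79% in the crypt after 90 days and 0.334%, 0.247%, 12.5%, 14.7%, 14.4%, and 14.1% in the villus. The comparisons within a compartment and day share their untreated libraries. Each fit was repeated without each library at 0, 5, 20, 60, or 180 ppm and without each villus library at 0.1 and 1.4 ppm after 90 days. With 1 library left out, 2 to 5 tests passed in the crypt after 90 days and 2 to 11 in the villus. Duoxa2 was at 0 counts in 119 libraries, Saa1 in 79, Lcn2 in 68, Nos2 in 58, and Duox2 in 46, whereas Reg1 and Dmbt1 were counted in every library. The count of calls in the villus after 90 days moved with the tool, from 10 to 6 in the newer form of the quasi-likelihood fit and to 26 in DESeq2, of which 17 had fitted log2 changes past 10 against groups at 0 counts. The 4 calls in the crypt after 90 days held in the newer form and in DESeq2, which called 6 there. After 7 days the newer form called 2 in the crypt and 5 in the villus, which became 0 and 2 without mouse 447 (Reg3a and Dmbt1 in the villus at 180 ppm).

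Reg3a, a lectin of the Reg3 subfamily, fell in the crypt after 90 days. The 5 untreated crypts held 59.2, 13.4, 19.6, 7.32, and 11.1 CPM, the 5 at 60 ppm 1.94, 2.15, 1.26, 3.11, and 2.48 CPM, and the 5 at 180 ppm 4.75, 0, 1.26, 3.38, and 1.16 CPM. All exposed libraries lay below all untreated ones. At 60 ppm Reg3a stood at 0.120 of the untreated level (log2 fold change -3.06 ± 0.95 (SE), adjusted p = 0.0136), and it was 1 of 2 members called of 10, where 8.89% of probes passed. At 180 ppm it stood at 0.117 of that level (log2 fold change -3.10 ± 0.95 (SE), adjusted p = 0.0258), where 3.79% of probes passed. Both calls rested on the untreated library of mouse 3, the highest at 59.2 CPM, since without it the log2 change was -2.30 (adjusted p = 0.124) at 60 ppm and -2.34 (adjusted p = 0.191) at 180 ppm. Leaving out mouse 484 at 180 ppm, which held 0 counts, gave 0.112. The trend over the 7 concentrations, taken as evenly spaced steps, was -0.52 ± 0.13 (SE) log2 units per step, adjusted p = 0.000463, and it passed with any 1 of 25 crypt libraries left out. The villus showed the same direction after 90 days, with 18.9, 15.3, 19.2, and 6.89 CPM untreated, 3.89, 4.27, 1.15, 1.19, and 6.90 CPM at 60 ppm, and 6.71, 0, 0, 5.93, and 1.69 CPM at 180 ppm. The highest library at each of these concentrations reached about the lowest untreated library. There the trend passed (-0.38 ± 0.13 (SE) log2 units per step, adjusted p = 0.0109), whereas neither concentration did by itself (adjusted p = 0.150 and 0.102). Without mouse 447 in the fit the villus passed at 20 ppm (log2 -2.25, adjusted p = 0.0902) and at 180 ppm (log2 -2.25, adjusted p = 0.0934) and not at 60 ppm (0.131). Reg3a in the villus after 7 days ran from 12.1 to 29.4 CPM untreated and was at 0, 6.65, 3.72, and 0 CPM at 180 ppm, with no overlap, but the adjusted p was 0.127. The newer form of the fit without mouse 447 called it there.

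Reg1, a lectin with trophic activity in the gut, also fell in the crypt after 90 days. The untreated crypts held 4484, 7778, 6373, 5037, and 2662 CPM. At 60 ppm they held 1859, 760.4, 919.8, 1242, and 1418 CPM, and at 180 ppm 1457, 403, 1042, 1485, and 1644 CPM. The groups did not overlap at either concentration. The level at 60 ppm was 0.235 of untreated (log2 fold change -2.09 ± 0.54 (SE), adjusted p = 0.00467) and at 180 ppm 0.229 (log2 fold change -2.13 ± 0.54 (SE), adjusted p = 0.00940), and both calls held with any 1 of their libraries left out. The trend in the crypt was -0.37 ± 0.07 (SE) log2 units per step, adjusted p = 3.65e-05. Lower concentrations lay between, with 1501, 2803, 2469.9, 1617, and 3369.6 CPM at 20 ppm, of which 2803 and 3369.6 CPM exceeded the lowest untreated library. In the villus after 90 days the untreated libraries held 3715, 4659.5, 7315, and 8462 CPM and those at 60 ppm 2641, 2466, 1405, 2168, and 2885 CPM, all below the untreated ones (log2 fold change -1.38 ± 0.55 (SE), adjusted p = 0.0931, where 14.4% of probes passed). That call was lost when any 1 of 8 of its 9 libraries was left out, up to an adjusted p of 0.208, with probes summed the adjusted p was 0.101, and without mouse 447 in the fit it was 0.0101. The trend in the villus passed as well (-0.18 ± 0.07 (SE) log2 units per step, adjusted p = 0.0520) and was lost without the untreated mouse 7 or without mouse 485 at 180 ppm, up to an adjusted p of 0.120. At 180 ppm the villus held 2401, 1977, 2266, 3695, and 5862 CPM, which overlapped the untreated group (adjusted p = 0.291). After 7 days Reg1 passed at no concentration in either compartment, and mouse 447 held 1.22 CPM in the crypt and 246 CPM in the villus, against at least 403 CPM in all other libraries. The change of Reg1 at 60 ppm did not differ between days at the threshold with that mouse (adjusted p = 0.335 in the crypt and 0.133 in the villus), and without it the change after 90 days was the lower one in both (log2 difference -1.77, adjusted p = 0.0935 in the crypt, and -2.12, adjusted p = 0.0207 in the villus). The other probes of Reg1 fell too at 180 ppm in the crypt after 90 days (log2 -2.62 ± 0.55, adjusted p = 0.000808, and -1.89 ± 0.52, adjusted p = 0.0210). At 60 ppm the second passed (log2 -2.48 ± 0.54, adjusted p = 0.000589) and the third did not (-0.90 ± 0.51, adjusted p = 0.330).

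Cell type markers were read beside the falls of Reg3a and Reg1 in the crypt after 90 days. The 15 pancreatic acinar markers tested, led by Cpa1, summed to 12.4 to 157084 CPM over untreated libraries, 39.9 to 19379 CPM at 60 ppm, and 61.8 to 23956 CPM at 180 ppm, with 0 of 15 called, and all 4 calls held with this sum as a covariate. The 5 Paneth cell markers, led by Defa24, summed to 4689 to 11837 CPM untreated and 4287 to 9823 CPM at 180 ppm, with 0 of 5 called. The 5 T cell markers, led by Cd3d, summed to 16.7 to 66.0 CPM untreated, 8.76 to 24.7 CPM at 60 ppm, and 7.01 to 23.1 CPM at 180 ppm, and 2 of 5 were lower at each. Il22, the cytokine interleukin-22 of innate lymphoid and T cells, was at 0 counts in 121 of the 71 crypt and 66 villus libraries. Of 8 enterocyte markers 2 were lower at 60 ppm and 3 at 180 ppm, and of 5 goblet cell markers, led by Zg16, 3 were higher at 60 ppm and 1 at 180 ppm. The part of T cell, enterocyte, and goblet cell markers in the falls of Reg3a and Reg1 was not tested.

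**Figure D2:**
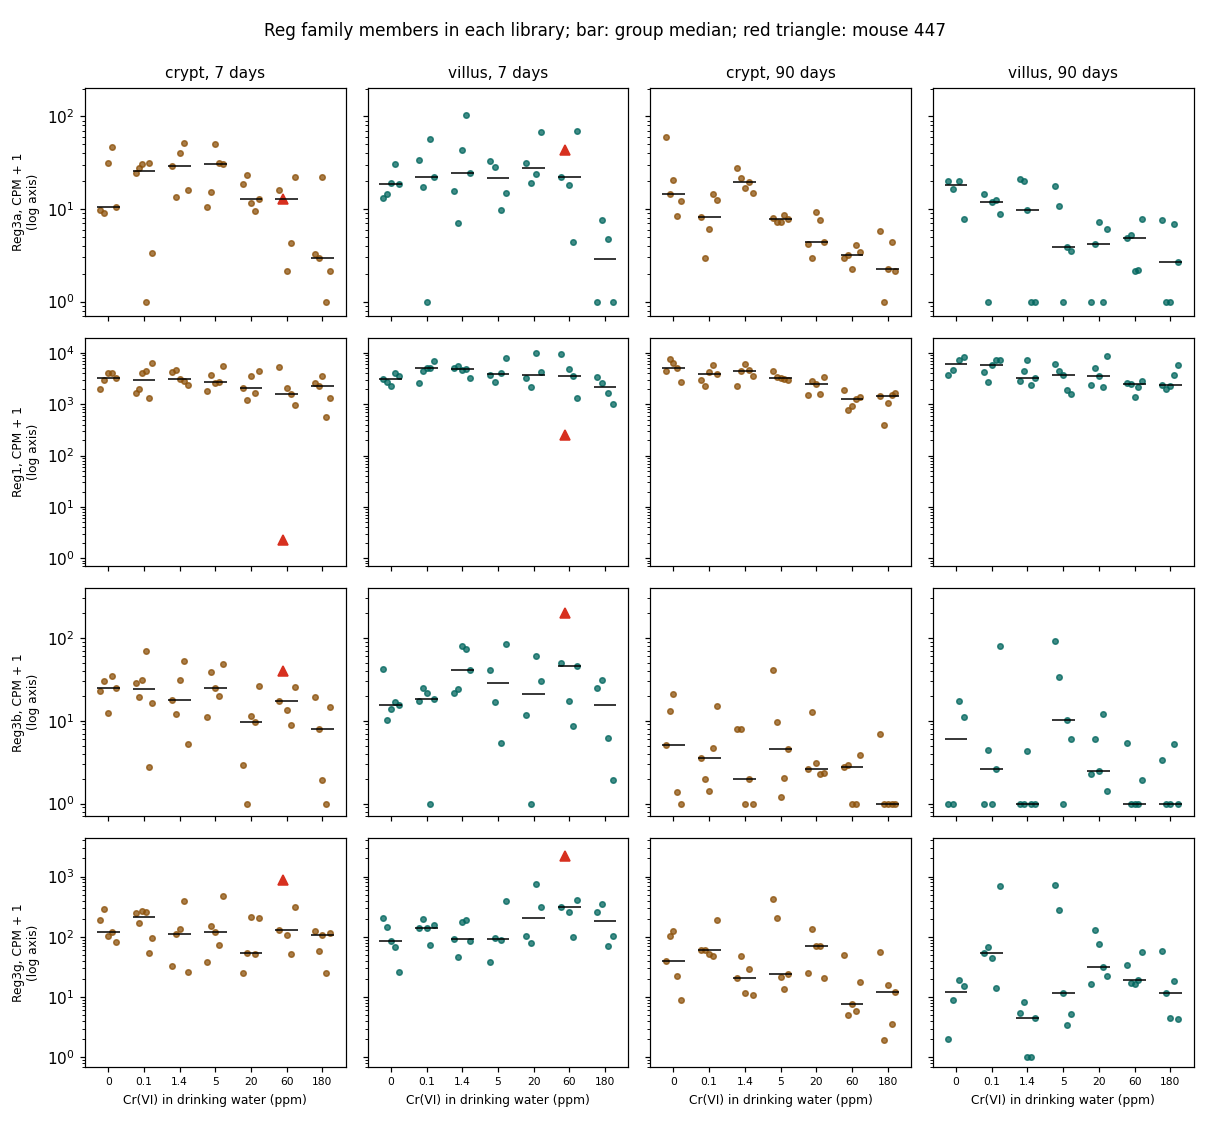
Reg3a, Reg1, Reg3b, and Reg3g (vertical, CPM + 1, log axes) in each library by Cr(VI) concentration (ppm) in crypt and villus after 7 and 90 days; points are libraries, black bars are group medians, and red triangles mark mouse 447. In the crypt after 90 days the points of Reg3a and Reg1 at 60 and 180 ppm lie below all untreated points.

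Reg3g, a lectin that kills gram-positive bacteria, was higher in the villus after 90 days at 5 ppm, through 2 mice of 5. The untreated villi held 0.997, 7.91, 18.4, and 14.2 CPM. At 0.1 ppm they held 52.5, 67.4, 43.2, 13.1, and 688 CPM, the last from mouse 85, and at 5 ppm 725, 280.4, 10.7, 2.43, and 4.21 CPM, the first pair from mice 241 and 243. Mice 85, 241, and 243 were far above the untreated range, the other 3 at 5 ppm lay within it, and 3 of the other 4 at 0.1 ppm lay above it. At 5 ppm the fold was 18.5 (log2 fold change 4.21 ± 1.09 (SE), adjusted p = 0.00697) and it passed with any 1 of its 9 libraries left out, down to log2 2.77 and an adjusted p of 0.0772 without mouse 241, in a contrast where 4 members were called and 12.5% of probes passed. At 0.1 ppm the fold was 15.5 (log2 fold change 3.96 ± 1.08 (SE), adjusted p = 0.0970), the only member called where 0.334% of probes passed, and without mouse 85 the log2 change was 1.97 and the adjusted p 0.312. That call was also lost without the untreated mouse 3, 5, or 6, and in other settings, among them the newer form of the fit (0.182) and a separate fit (0.258). At 1.4 ppm, between these concentrations, the villi held 4.38, 7.25, 0, 0, and 3.47 CPM. No trend over concentration passed in the villus after 90 days (adjusted p = 0.983), whereas in the crypt Reg3g fell over concentration (-0.30 ± 0.12 (SE) log2 units per step, adjusted p = 0.0813), a call lost when any 1 of 9 libraries was left out and with the summed pancreatic acinar markers as a covariate (-0.27 per step, adjusted p = 0.126). The crypts held 38.3, 102, 124, 21.4, and 7.86 CPM untreated and 48.5, 4.07, 6.74, 4.81, and 16.8 CPM at 60 ppm, and the groups overlapped (adjusted p = 0.226).

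After 7 days Reg3g in the villus held 207, 145, 82.8, 67.6, and 25.0 CPM untreated and 311, 2154, 257, 99.3, and 413 CPM at 60 ppm, the highest from mouse 447. The rise passed with that mouse (log2 fold change 2.61 ± 0.88 (SE), adjusted p = 0.0766) and did not without it (log2 1.36, adjusted p = 0.316). The trend over concentration behaved alike, at 0.30 ± 0.12 (SE) log2 units per step, adjusted p = 0.0785, and at 0.21 with an adjusted p of 0.238 without it. The rise was lost when any 1 of 5 of its 10 libraries was left out and the trend for any 1 of 7 of 22. Both were lost without mice 48 and 49 (0.213 and 0.212) and with the summed pancreatic acinar markers as a covariate (0.127 and 0.129). Untreated villi held less Reg3g after 90 than after 7 days, with no overlap (log2 fold change -3.25 ± 1.05 (SE), adjusted p = 0.0942; 2.33% of probes passed), a call lost when any 1 of 6 of its 9 libraries was left out, in the newer form of the fit (0.116), with size factors of DESeq2 (0.104), with probes summed (0.106), and without mice 48 and 49 (0.160). In the untreated crypt 0 members differed between days by edgeR, also at an unadjusted p under 0.05, and 0 in DESeq2 (0.00379% of probes). Reg3b, the close relative of Reg3g, did not pass at any concentration. It was counted in the same mice, with 78.5 CPM in the villus of mouse 85, 91.5 CPM in that of mouse 241, and 32.2 CPM in that of mouse 243, where the 4 untreated villi held 0, 0, 16.1, and 9.95 CPM. Over the 7 concentrations Reg3b fell in the villus after 90 days (-0.38 ± 0.18 (SE) log2 units per step, adjusted p = 0.0668), a call lost without any 1 of 7 libraries (untreated mice 6 and 7, mice 484, 485, and 490 at 180 ppm, mouse 85 at 0.1 ppm, and mouse 163 at 1.4 ppm; without mouse 85 the slope was -0.15, adjusted p = 0.608), in the newer form of the fit (0.129), and in a separate fit (0.120). That trend was 1 of 6 members called, where 30.4% of probes passed, and the crypt trend after 90 days called 3 of 10 members, where 13.7% of probes passed.

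The balance of Reg3g between villus and crypt was read within mice, since both libraries came from the duodenum of the same mouse. In the 4 untreated mice with both libraries after 90 days, villus minus crypt was -4.30, -3.52, -2.68, and -0.56 on the log2 scale (CPM + 1), so Reg3g was lower in the villus in 4 of 4. At 60 ppm it was -0.56, 1.78, 1.11, 1.74, and 1.67, higher in the villus in 4 of 5 mice, and at 180 ppm 0.08, 2.58, -1.84, 2.38, and -1.47, higher in 3 of 5. The mean difference between exposed and untreated mice was 3.91, exact permutation p = 0.0159 at 60 ppm, and 3.11, exact permutation p = 0.0635 at 180 ppm (two-sided, where the smallest p possible was 0.00794). The mean was -0.03, -2.84, -0.76, and -0.30 at 0.1, 1.4, 5, and 20 ppm, so that at 1.4 ppm it was about that of untreated mice (-2.77). After 7 days the untreated mice held 0.14, -1.0, -0.27, -0.80, and -1.68, those at 60 ppm 1.24, 1.30, 1.24, 0.95, and 0.39, and those at 180 ppm 1.04, 1.69, 1.48, and -0.16. All 5 mice at 60 ppm lay above all 5 untreated mice, and the difference was 1.75, exact permutation p = 0.00794 (1.68, p = 0.0159 in the exact test without mouse 447). At 180 ppm it was 1.74, exact permutation p = 0.0238. Mice 48 and 49, at -0.27 and -0.80, were among the untreated mice, and crypt markers were unlike the label in a library of each. Villus minus crypt after 7 days was 0.23, -0.84, 0.41, 0.74, and -0.86 at 0.1 ppm and 1.45, -1.29, 0.40, -1.07, and 1.71 at 1.4 ppm. It was 0.02, -0.34, 0.23, and -0.29 at 5 ppm and 2.05, 0.57, 1.83, and 2.61 at 20 ppm. These exact tests were run on all 10 members at 60 and 180 ppm on both days after the block below had been fitted. Of the 40 tests 6 had an exact permutation p under 0.05, 3 for Reg3g and 3 for Reg1, and 0 passed with Benjamini-Hochberg adjustment over the 40 (lowest adjusted p = 0.190).

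For Reg1 the villus minus crypt was -0.27, -0.74, 0.20, and 0.75 in untreated mice after 90 days, 0.51, 1.70, 0.61, 0.80, and 1.02 at 60 ppm, and 0.72, 2.29, 1.12, 1.31, and 1.83 at 180 ppm. It was higher in the villus in 5 of 5 mice at each of these concentrations and in 2 of 4 untreated mice, and the mean was 0.51, -0.11, -0.11, and 0.77 at 0.1, 1.4, 5, and 20 ppm, against -0.02 untreated. The differences from untreated were 0.94, exact permutation p = 0.0397 at 60 ppm, and 1.47, exact permutation p = 0.0238 at 180 ppm. At 60 ppm after 7 days the difference was 2.15, exact permutation p = 0.0159, with mouse 447 at 6.80, and without that mouse it was 0.97, exact permutation p = 0.0238. In the fit of group means, which ignores the mouse, 0 of 40 such tests passed by edgeR (3 at an unadjusted p under 0.05, and 6 in DESeq2, all for Duox2, Nos2, and Saa1 with untreated villi at 0; 0.0114% and 0.0152% of probes after 7 days, 0.0683% and 0.247% after 90 days, at 60 and 180 ppm). With the mouse as a block and the spread of each probe (limma-voom), Reg3g at 60 ppm after 7 days (log2 1.78, adjusted p = 0.0421, 1 of 10 members, 0.163% of probes; without mouse 447, log2 1.38, adjusted p = 0.193) and Reg1 at 180 ppm after 90 days (log2 1.22, adjusted p = 0.0994, 1 of 10, 1.21% of probes) passed, and Reg3g after 90 days gave log2 3.55, adjusted p = 0.140 at 60 ppm. The same block in edgeR called 8 of 40 (Reg3g in all 4 contrasts, Reg1 in 3, and Dmbt1 in 1, with 0.262% to 2.16% of probes), but that fit gave all probes of similar abundance the same spread, which for Reg3g after 90 days was 1.03 against 5.13 from its own counts, for Reg1 after 7 days 0.222 against 1.61, and for Dmbt1 after 90 days 0.516 against 2.91, so its p-values for these genes rest on a spread below their own. The lowest exact permutation p of Dmbt1 was 0.0873, at 60 ppm after 90 days, and that of Reg1 at 180 ppm after 7 days was 0.563.

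**Figure D3:**
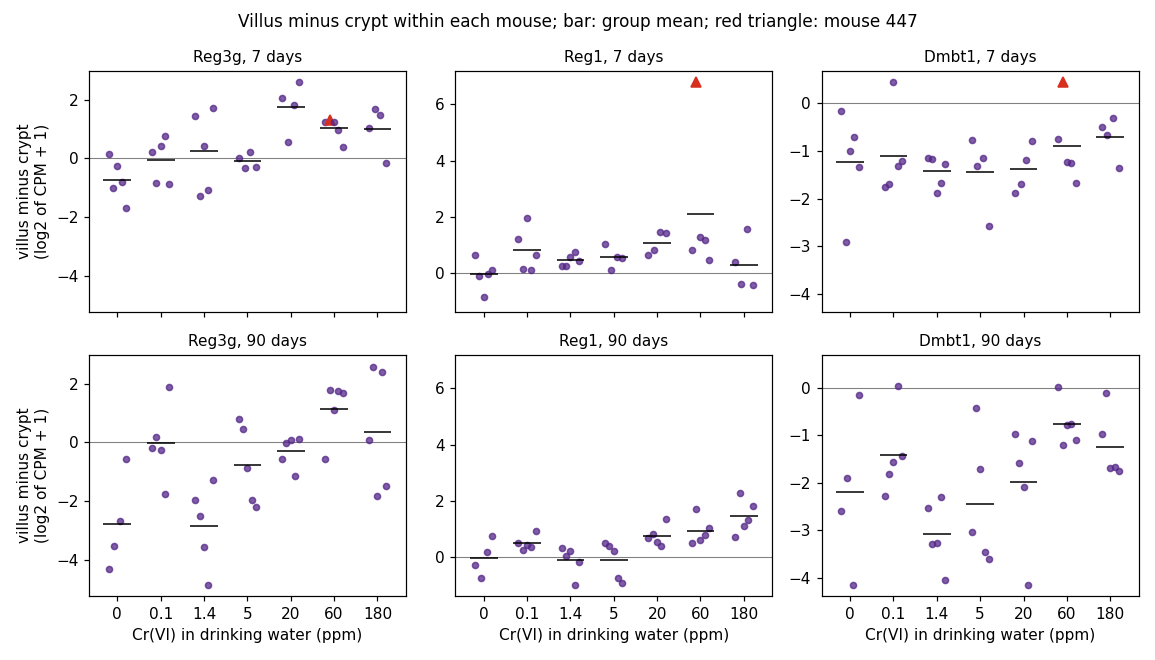
Villus minus crypt within each mouse (vertical, log2 of CPM + 1) for Reg3g, Reg1, and Dmbt1 by Cr(VI) concentration (ppm) after 7 days (upper) and 90 days (lower); points are mice, black bars are group means, the grey line marks equal levels, and red triangles mark mouse 447. Reg3g lies mostly below 0 in untreated mice and above 0 in 9 of 10 mice at 60 ppm, and Dmbt1 stays mostly below 0.

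Duox2, the oxidase that releases hydrogen peroxide at the epithelial surface, was counted after 90 days in most villi at 5 ppm and above and in none of the untreated ones. The 4 untreated villi held 0 counts, which allows up to 1.34 CPM (3 counts a library, counting error only). Villi at 5 ppm held 0, 28.3, 9.95, 7.78, and 3.79 CPM, at 20 ppm 5.44, 9.08, 2.07, 7.18, and 0 CPM, at 60 ppm 16.4, 0, 4.20, 9.80, and 4.39 CPM, and at 180 ppm 2.88, 3.49, 14.2, 0, and 2.54 CPM. At 1.4 ppm 5 of 5 villi were at 0 counts, and at 0.1 ppm 3 of 5. At each concentration from 5 ppm 4 of 5 libraries were above the floor and 1 was at 0. The rise was at least 7.41-fold at 5 ppm, 3.54-fold at 20 ppm, 5.19-fold at 60 ppm, and 3.43-fold at 180 ppm (adjusted p = 0.0418, 0.0704, 0.0438, and 0.0764, edgeR's quasi-likelihood test with Benjamini-Hochberg adjustment), where 12.5%, 14.7%, 14.4%, and 14.1% of probes passed. At 20 and 180 ppm it was the only member called. Without the highest exposed library the bound was 4.0-fold at 5 ppm (mouse 243), 2.73-fold at 20 ppm (mouse 323), 3.42-fold at 60 ppm (mouse 402), and 1.66-fold at 180 ppm (mouse 485). Without 1 library the 4 calls reached adjusted p-values of up to 0.107, 0.147, 0.102, and 0.170, the untreated villus of mouse 5 being among the losses at each concentration. The trend over concentration also passed (adjusted p = 0.0144), with any 1 of 34 villus libraries left out. In the newer form of the quasi-likelihood fit (legacy = FALSE) none of these passed, with adjusted p-values of 0.107, 0.293, 0.141, and 0.311, and 0.120 for the trend. At 0.1 ppm mouse 85 held 59.7 CPM in its villus and 23.9 CPM in its crypt.

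In the crypt after 90 days Duox2 was at 8.49, 1.09, 1.67, 0.770, and 0 CPM untreated and 18.1, 3.35, 9.69, 7.36, and 4.0 CPM at 60 ppm, which overlapped (adjusted p = 0.545). After 7 days the villi at 180 ppm held 7.21, 18.0, 21.9, and 28.5 CPM, against 17.7, 0, 5.13, 0, and 0 CPM untreated (adjusted p = 0.424). The trend in the villus after 7 days passed with mouse 447 (adjusted p = 0.0756, 1 of 4 members called where 15.5% of probes passed) and not without it (0.394). That call was lost when any 1 of 6 villus libraries was left out, in a separate fit (0.212), and without mice 48 and 49 (0.201). Mouse 447 held 122 and 213 CPM in crypt and villus, above the highest of the other 135 libraries (59.7 CPM). Duoxa2, which brings Duox2 to the cell surface, was at 0 counts in 119 libraries and above 3 counts in 14, with at most 7.65 CPM. It passed at no concentration, at counts too low to show that its level stayed the same. Nos2, which makes nitric oxide, was at 0 in the 4 untreated villi after 90 days and at 7.74, 5.09, 0, 6.81, and 5.47 CPM at 5 ppm, at least 3.74-fold higher (adjusted p = 0.0873), a call lost when any 1 of 6 libraries was left out, in the newer form of the fit (0.167), with no filter on low counts (0.104), and with probes summed (0.100). At 20, 60, and 180 ppm Nos2 did not pass, and from 2 to 3 of 5 libraries were above the floor. In mouse 447 Nos2 reached 359.8 CPM in the villus and 54.3 CPM in the crypt, against at most 13.2 CPM elsewhere, and its villus library held 34.8% of all Nos2 counts.

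**Figure D4:**
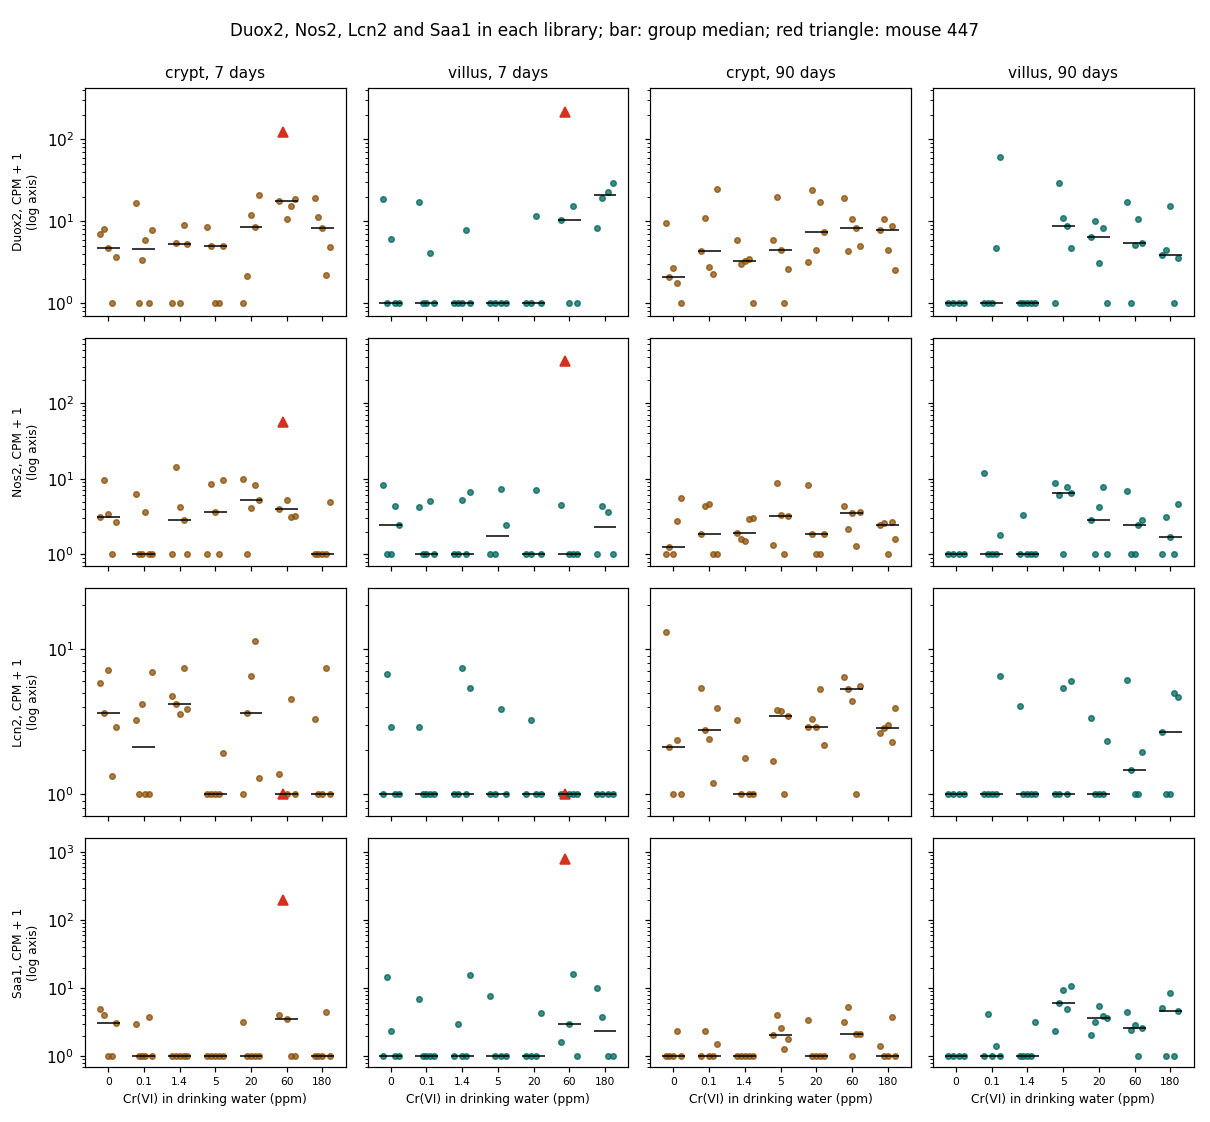
Duox2, Nos2, Lcn2, and Saa1 (vertical, CPM + 1, log axes, so that 1 stands for 0 counts) in each library by Cr(VI) concentration (ppm) in crypt and villus after 7 and 90 days; points are libraries, black bars are group medians, and red triangles mark mouse 447. Untreated villi after 90 days lie at 0 for all 4 genes, and mouse 447 holds the highest Duox2, Nos2, and Saa1.

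Saa1, an acute phase protein that the gut epithelium also makes, rose in the villus after 90 days. The 4 untreated villi held 0 counts, and those at 5 ppm held 1.33, 5.09, 8.36, 3.89, and 9.68 CPM, without overlap and at least 4.22-fold higher (adjusted p = 0.0905, lost when any 1 of 7 libraries was left out, in the newer form of the fit at 0.216, with no filter on low counts at 0.107, and with probes summed at 0.103). Villi held 1.04, 2.14, 4.44, 2.87, and 2.62 CPM at 20 ppm, 3.54, 1.42, 1.91, 0, and 1.57 CPM at 60 ppm, and 4.07, 0, 7.60, 0, and 3.66 CPM at 180 ppm, none of which passed alone. The trend over concentration passed (adjusted p = 0.0421), with any 1 of 34 villus libraries left out, and not in the newer form of the fit (0.178) or with counts thinned to the smallest total (0.112). After 7 days the villi at 60 ppm held 0.638, 805, 2.02, 15.3, and 0 CPM, of which 805 CPM came from mouse 447, in a library with 52.5% of all Saa1 counts. Saa1 passed there with that mouse (log2 fold change 5.56 ± 1.77 (SE), adjusted p = 0.0448) and not without it (log2 0.53, adjusted p = 0.967). That call was lost when any 1 of 3 of its 10 libraries was left out. It was lost as well without mice 48 and 49 (0.178) and with the summed pancreatic acinar markers as a covariate (0.107). Lcn2, which captures bacterial siderophores, was near its floor throughout, at most 12.1 CPM. In the villus after 7 days it was at 0 counts in all 9 libraries at 60 and 180 ppm and in 3 of 5 untreated ones, and it fell over concentration (adjusted p = 0.0241; 0.0236 without mouse 447; 0.173 in the newer form of the fit and 1.0 without mouse 90, which was at 0.1 ppm). In the villus after 90 days it rose over concentration (adjusted p = 0.0845), from 0 counts in the 4 untreated villi to 1.68, 0, 0, 3.96, and 3.66 CPM at 180 ppm, a call lost without any 1 of 9 libraries (the 4 untreated ones, mouse 83 at 0.1 ppm, mouse 321 at 20 ppm, mouse 402 at 60 ppm, and mice 488 and 490 at 180 ppm), in the newer form of the fit (0.225), in a separate fit (0.136), with size factors of DESeq2 (0.110), in DESeq2 (0.206), and with thinned counts (0.544). The change of Lcn2 in the villus differed between days at 60 ppm (adjusted p = 0.0258; 14.8% of probes) and at 180 ppm (adjusted p = 0.0717; 2.96% of probes), and that of Duoxa2 at 60 ppm (0.0664), each from a few counts a library. In the newer form of the fit none of these passed (0.133, 0.274, and 0.338). Without 1 library the second was lost for 7 of 18 libraries and the third for 5 of 19, with the untreated villi of mice 3, 5, and 6 after 90 days among them for each. For Lcn2 at 180 ppm the difference was log2 4.07, against 1.34 with thinned counts (adjusted p = 0.250), and without mice 48 and 49 the adjusted p was 0.105. The difference for Duoxa2 rested on the untreated villus of mouse 46 after 7 days, which held 7.65 CPM where the other 4 were at 0, since without it the difference was log2 0.82, adjusted p = 1.0. With mouse 447 in the fit 0 members differed so in the crypt by edgeR (2 of 20 at an unadjusted p under 0.05, and 1 in DESeq2; 5.69% and 0.0948% of probes). The second probe of Lcn2 held 186 counts in all against 880, and that of Saa1 held 4.

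Markers of inflammatory cells were read beside these rises. The neutrophil genes S100a8 and S100a9 were at 0 counts in 120 and 126 of the 71 crypt and 66 villus libraries. The 8 neutrophil markers tested, led by Ly6g, summed to 6.86 to 17.9 CPM in untreated villi after 90 days, 3.58 to 64.7 CPM at 5 ppm, and 15.1 to 34.5 CPM at 180 ppm, with 1 of 8 called higher at 5, 60, and 180 ppm and 2 of 8 at 20 ppm. This sum weighs Ly6g most, which averaged 12.6 CPM and was at 0 counts in 2 libraries, whereas 5 of the 8 averaged under 1 CPM. The 7 macrophage markers, led by C1qb, summed to 121 to 263 CPM in untreated villi, 126 to 228 CPM at 5 ppm, and 256 to 348 CPM at 60 ppm, with 1 of 7 higher at 20 and 60 ppm and 2 at 180 ppm. Their part in the rise of Duox2, Nos2, and Saa1 was not tested. The untreated villi were also shallower, and fewer probes were detected in them, 13091 to 15835 per library. The range was 17172 to 21527 in villi at 5 ppm and 15157 to 18947 at the highest concentration. The villus of mouse 245 (5 ppm) had 21471 in 1991023 counts, and that of the untreated mouse 7 had 15835 in 2678299. The median log2 change over all probes was 0.42 for 5 ppm and 0.11 for 180 ppm. The part of this shift in the rises of Duox2, Nos2, and Saa1 was not tested. With counts thinned to the smallest total Duox2 passed at the same 4 concentrations and over the trend. Under that thinning the trends of Saa1 (0.20 log2 units per step, adjusted p = 0.112) and Lcn2 (0.0046, adjusted p = 0.544) did not pass.

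Dmbt1, a mucin-like scavenger receptor that binds bacteria, marked the crypt. Over the 7 concentrations it was 2.29-fold higher in the crypt than the villus after 7 days (log2 fold change 1.19 ± 0.16 (SE), adjusted p = 5.60e-10) and 2.97-fold after 90 days (log2 fold change 1.57 ± 0.16 (SE), adjusted p = 1.57e-15), where 35.1% and 34.5% of probes differed between the compartments and 4 of 10 members did at each day. In untreated mice after 90 days the crypts held 881, 1227, 1087, 989.6, and 480.2 CPM and the villi 146, 328, 60.5, and 883 CPM, with the villus of mouse 7 inside the crypt range (log2 fold change 1.40 ± 0.45 (SE), adjusted p = 0.0429; 10.1% of probes). That call was lost without the villus of mouse 3, 5, or 6, up to an adjusted p of 0.204, and without that of mouse 7 the log2 difference was 2.42. In untreated mice after 7 days the difference did not pass without the mouse as a block (adjusted p = 0.272, 0 of 10 members by edgeR, 0.152% of probes; 1 at an unadjusted p under 0.05 and 1 in DESeq2), and it passed with the block (log2 1.18, adjusted p = 0.00409 in limma-voom, and log2 1.19, adjusted p = 0.000146 in edgeR), with more Dmbt1 in the crypt in 5 of 5 mice. In the main edgeR fit Dmbt1 was called against untreated at 1 concentration, 1.4 ppm in the villus after 90 days. The newer form of the fit without mouse 447 called it in the villus after 7 days as well, at the highest concentration. At 1.4 ppm after 90 days the villi held 106, 75.9, 67.4, 135, and 39.7 CPM, a fall from untreated (log2 fold change -2.06 ± 0.44 (SE), adjusted p = 0.0165; 0.247% of probes). That fall rested on the untreated villus of mouse 7, at 883 CPM, without which it was log2 -1.03, adjusted p = 0.246, and in a separate fit it was log2 -2.05, adjusted p = 0.159. Dmbt1 rose in the villus after 7 days over concentration (0.14 ± 0.06 (SE) log2 units per step, adjusted p = 0.0937; 0.0509 without mouse 447), a call lost when any 1 of 10 libraries was left out. The second probe of Dmbt1 gave a log2 difference between crypt and villus of 1.61 ± 0.16, adjusted p = 7.66e-16 after 90 days.

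Several other members also differed between the compartments on the mean of the 7 concentrations. Reg1 was lower in the crypt, at 0.714 of the villus level after 7 days (log2 fold change -0.49 ± 0.20 (SE), adjusted p = 0.0524) and 0.678 after 90 days (log2 fold change -0.56 ± 0.20 (SE), adjusted p = 0.0207), and passed with the block as well (log2 -0.68, adjusted p = 7.67e-09 after 90 days, limma-voom). The call after 7 days was lost without the villus of mouse 290, 368, or 446 (up to 0.149), and without mouse 447 the adjusted p was 0.0132. In untreated mice alone Reg1 was about equal, with a mean villus minus crypt (log2 of CPM + 1) of -0.04 after 7 days and -0.02 after 90 days. It was higher in the villus in 2 of 5 and 2 of 4 of them. Duox2 was higher in the crypt after 90 days (adjusted p = 0.0273; 0.133 in the newer form of the fit) and, without mouse 447, after 7 days (0.0715; 0.166 with it), and so was Lcn2 after 7 and 90 days (adjusted p = 0.00785 and 0.0768), both from low counts. The call after 7 days was lost without the crypt of mouse 290 at 5 ppm and in the edgeR fit with mice as blocks (log2 1.04, adjusted p = 0.105; without mouse 447, log2 1.07, adjusted p = 0.103), that after 90 days without the crypt of the untreated mouse 3 and in DESeq2 (adjusted p = 0.151), and both with probes summed or counts thinned. Saa1 was lower in the crypt after 7 days (adjusted p = 0.00122), a call lost without the villus of mouse 286 or 369 and without mouse 90 (log2 -1.19, adjusted p = 1.0). The log2 difference was -1.41 with all libraries, -0.69 without the villus of mouse 447, and -2.04 without its crypt. With both left out the block gave log2 -0.91, adjusted p = 0.140 in limma-voom, and log2 -0.46, adjusted p = 0.437 in edgeR. With the block Reg3g lay higher in the villus after 7 days (log2 -0.36, adjusted p = 0.0179) and higher in the crypt after 90 days (log2 0.58, adjusted p = 0.0694), and in untreated mice after 90 days it was higher in the crypt (log2 2.78, adjusted p = 0.0474; without the block, 0.132). Over the 7 concentrations the libraries themselves differed as labeled, with all 6 crypt markers and all 5 Paneth cell markers higher in the crypt at both days.

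Mice that were high in a compartment were high in the other for the lectins. Deviations from the group mean (log2 of CPM + 1) were compared between the crypt and the villus of the 66 mice with both, in 10 relations. For Reg3g they gave Pearson r = 0.71 and Spearman rho = 0.66, for Reg1 Pearson r = 0.78 and Spearman rho = 0.68, each with a permutation p of 1e-05, the smallest that 100000 permutations within groups can give (adjusted p = 5.00e-05). The mice lay on the same side of their group means in both compartments in 54 of 66 for Reg3g and 52 of 66 for Reg1. Without the 2 mice farthest from the median in the crypt, r was 0.65 and 0.61. Reg3a (Pearson r = 0.52 and Spearman rho = 0.47; permutation adjusted p = 0.000367) and Reg3b (Pearson r = 0.50 and Spearman rho = 0.40; 0.00152) also passed, and so did Duox2 (Pearson r = 0.41 and Spearman rho = 0.29; 0.00618 by r and 0.0729 by rho). Dmbt1 passed by rho alone (Pearson r = 0.19 and Spearman rho = 0.25; 0.140 and 0.0892), and Duoxa2, Nos2, Lcn2, and Saa1 did not pass. The r of Saa1 went from 0.44 to 0.09 and that of Nos2 from 0.11 to -0.12 without mouse 447. Mice 85, 241, and 243 were among those high in both compartments after 90 days, with Reg3g at 187, 419, and 205 CPM in their crypts.

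**Figure D5:**
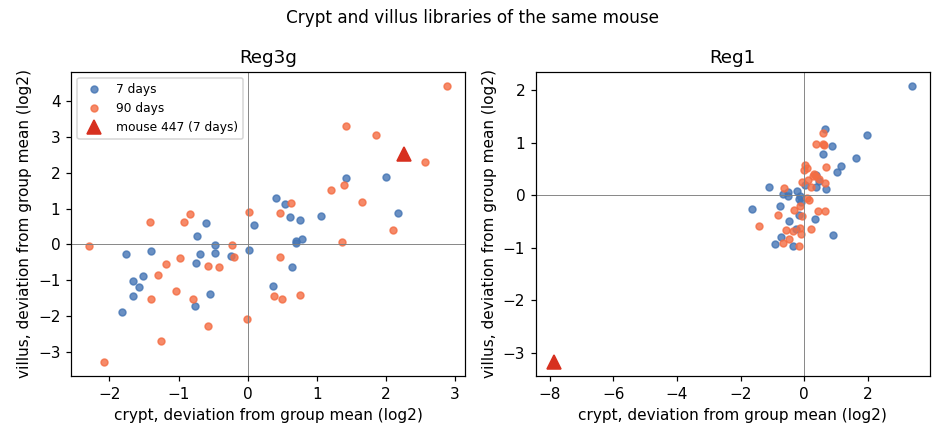
Deviation of the villus library from its group mean (vertical, log2) against that of the crypt library of the same mouse (horizontal, log2) for Reg3g (left) and Reg1 (right); points are the 66 mice with both libraries, blue after 7 days and orange after 90 days, and the red triangle is mouse 447. Most mice lie at the lower left and upper right, 54 of 66 for Reg3g and 52 of 66 for Reg1.

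The genes whose levels followed each member most closely over the 71 crypt and 66 villus libraries were found by Spearman's rho among 10938 genes, as a description, since libraries share mice and depth. Reg3b and Reg3g followed each other (rho 0.805), and after Reg3b those nearest to Reg3g were Lypd8 (0.516) and Cstf2t (0.486). Dmbt1 was followed by Pycard (0.885), Uck2 (0.802), and Ccna2 (0.799). For Reg1 they were Papss2 (0.744), Cldnd1 (0.724), and Pigr (0.699), the last being the polymeric immunoglobulin receptor that carries IgA into the lumen. For Reg3a they were St3gal4 (0.667), Slc5a11 (0.626), and Slc13a2 (0.617), and for Duox2 Gpx2 (0.682), Gfpt1 (0.666), and Eif2s2 (0.640), where Gpx2 is a glutathione peroxidase of the gut. The highest rho for Saa1 was 0.505 and for Nos2 0.409.

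Genes upstream of the members and other genes of defense were counted from fixed lists over the trend in the villus after 90 days, where 22.3% of probes rose and 8.08% fell. Of signaling by interleukin-22, interleukin-17, and STAT3, 7 rose and 1 fell of 17. Stat3 itself, through which interleukin-22 acts, rose at 60 ppm in the crypt after 90 days (log2 1.04 ± 0.25, adjusted p = 0.00243), where Reg3a and Reg1 fell, and Il10rb, a receptor chain for interleukin-22, fell at 60 ppm in the villus (log2 -1.23 ± 0.42, adjusted p = 0.0429). Of NF-kappaB signaling and inflammatory cytokines, 6 rose and 2 fell of 19, and the alarmin Il33 rose at 180 ppm in the villus after 90 days (log2 3.17 ± 0.86, adjusted p = 0.00393). Of the sensors of microbes, 1 rose and 3 fell of 15. The adapter Myd88 rose at 60 ppm in the crypt after 90 days (log2 1.38 ± 0.28, adjusted p = 0.000210). Of NADPH oxidases and their partners, 5 rose and 0 fell of 14, and Cyba, the p22phox subunit, rose at 60 ppm (log2 1.35 ± 0.34, adjusted p = 0.00236).

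Of nitric oxide and arginine metabolism, 2 rose and 1 fell of 10. Gch1, which makes the cofactor of nitric oxide synthases, rose at 180 ppm in the villus after 90 days (log2 2.26 ± 0.54, adjusted p = 0.00125), where Nos2 did not pass. Of other antimicrobial proteins of the epithelium, 4 rose and 1 fell of 11. Among these Pigr fell at 180 ppm in the villus after 90 days (log2 -1.08 ± 0.34, adjusted p = 0.0239). Of acute phase and iron-withholding proteins, 2 rose and 0 fell of 9, with Saa4, Hp, Hpx, Orm1, and Orm2 not tested. Of interferon-induced genes, 1 rose and 9 fell of 23. Over the trend in the crypt 1 rose and 8 fell of 23, where 13.7% of probes passed in either direction after 90 days (8.67% after 7 days). The transcription factor Irf1 fell at 180 ppm in the villus after 90 days (log2 -1.95 ± 0.26, adjusted p = 6.99e-09), and the immunoproteasome subunit Psmb9 fell at 180 ppm in the crypt (log2 -1.85 ± 0.28, adjusted p = 1.48e-06). Of the other Reg family genes (Reg2, Reg3d, and Reg4), 0 rose and 0 fell of 3 after 90 days.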

How the data were processed

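TempO-Seq counts were measured in 71 libraries of mouse duodenal crypts and 66 of villi. Per the labels and the methods of the study, the authors demultiplexed reads with bcl2fastq 2.17.1.14, aligned them to the probe sequences with Bowtie (version not given in the sources used here), and deposited raw counts per probe, with 1463938 to 7199801 counts per library. Precision is limited by these counts, and floors cover counting error only. Probe sequences and their genome build were not used here.

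Groups were set by compartment, day, and concentration from the labels. Counts were fitted in R 4.3.3 with the quasi-likelihood test of edgeR 4.0.16 (legacy form, trended dispersion, TMM scaling, filterByExpr, prior count 2) in 1 model of the 28 groups, with Benjamini-Hochberg adjustment over 26365 probes and a threshold of 0.1. CPM values were computed from the deposited counts. A group at 3 counts or fewer in every library was set to 3 counts per library for a bound. Two-sided exact permutation tests compared villus minus crypt (log2 of CPM + 1) between mice for the 10 members, and were added after the fits with the mouse as a block. The 10 genes and all gene lists were chosen with earlier results of these data known. Genes outside the members were named by rule: the most abundant gene of a list and up to 4 genes with the smallest adjusted p at 60 or 180 ppm, and the 3 genes most alike each member by Spearman's rho among genes with a mean count of at least 10. Mouse numbers in the labels pair crypt and villus libraries of 66 mice; over 15114 probes their deviations from group means correlated with a median of 0.094 (lowest -0.135), and 30 of 66 pairs exceeded 0.1. A block for the mouse was fitted in edgeR and, with limma-voom (limma 3.58.1), chosen after seeing the data, as were all fits without mouse 447 and those that left out a villus library at 0.1 or 1.4 ppm. Alternatives included DESeq2 1.42.0, its size factors, other filters, thinned counts, the newer form of the edgeR fit, summed probes, separate fits, an acinar covariate, and left-out libraries. The test at 60 ppm in the villus after 7 days was checked on simulated counts with 4-fold changes in 200 probes. It recovered 29% of them: 0% at mean counts under 10, 20% at 10 to 100, and 90% over 100. Mean counts of Duoxa2 and Lcn2 were 0.898 and 6.42, and those of Nos2, Saa1, Duox2, Reg3a, and Reg3b ran from 13.6 to 51.6. For these members a test that did not pass cannot show that a level stayed the same. The summed level of 1 list of lymphoid markers is not reported here. Promoters and gene positions were read from RefSeq GRCm38.p6 and the GRCm38 annotation, and sequences were aligned with Biopython 1.88.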

Additional observations from a re-analysis of the deposited data

Results flagged for a closer look

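Of 122 groups of 4 to 6 libraries in which a member was tested for a library apart from the rest (Dixon's criterion, which chance meets in about 1 of 20 groups), 10 held one. Only groups in which the member had a mean of at least 10 CPM were tested. Mouse 447 at 60 ppm and 7 days accounted for 6. Its crypt library held 1.22 CPM of Reg1 (next library 965.6 CPM) and 201 CPM of Dmbt1 (next 1098 CPM), both low. The same library was high in Duox2 (122 CPM, next 17.7 CPM), Nos2 (54.3 CPM, next 4.19 CPM), and Saa1 (198 CPM, next 2.98 CPM). Its villus library held 359.8 CPM of Nos2 (next 3.51 CPM). The groups of Nos2 in crypt and villus and of Saa1 in the crypt reached the mean needed for the test only through mouse 447. The chance rate does not apply to them.

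The other 4 were single values of a member. The villus of mouse 129 (0.1 ppm, 7 days) held 0 CPM of Reg3b, where the next library held 16.2 CPM. In the crypt after 90 days, mouse 85 (0.1 ppm) held 187 CPM of Reg3g (next 60.5 CPM), mouse 241 (5 ppm) held 4382 CPM of Reg1 (next 3347 CPM), and mouse 321 (20 ppm) held 439.6 CPM of Dmbt1 (next 722 CPM).

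With all mice, changes that differed between days were found for 2 members in the villus, from few counts (edgeR's quasi-likelihood test with Benjamini-Hochberg adjustment). For Duoxa2 at 60 ppm the change after 90 days exceeded that after 7 days by a fitted 2.74 on the log2 scale (adjusted p = 0.0664), and without the untreated villus of mouse 46 after 7 days by 0.82 (adjusted p = 1.0). For Lcn2 it did so by 3.71 at 60 ppm (adjusted p = 0.0258) and by 4.07 at 180 ppm (adjusted p = 0.0717), the latter by 1.34 with thinned counts (adjusted p = 0.250). Groups at 0 counts enter these differences, so their sizes depend on the prior count and are no bounds. Without mouse 447 the change of Reg1 at 60 ppm differed as well, in the crypt (log2 difference -1.77, adjusted p = 0.0935) and in the villus (-2.12, adjusted p = 0.0207).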

How the results depend on the processing

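No called result changed sign under the alternatives run. The falls of Reg3a and Reg1 in the crypt after 90 days at 60 and 180 ppm and over concentration, the rise of Reg3g in the villus after 90 days at 5 ppm, the falls of Reg3a and Reg1 over concentration in the villus after 90 days, and the excess of Dmbt1 in the crypt over all concentrations passed in each of the other settings run, apart from single libraries named with these results. Untreated villi after 90 days, in shallow libraries, were at 0 counts of Duox2, Duoxa2, Nos2, Lcn2, and Saa1, so depth sets the floor of each of their folds. Libraries at 0.1 and 1.4 ppm were left out in turn for the villus after 90 days alone. The cause of the differences between settings was not tested, beyond the libraries and the spread they leave out.

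Counts of calls moved as follows. In DESeq2, in the order crypt and villus, calls against untreated went from 0 to 2 and from 2 to 5 after 7 days and from 4 to 6 and from 10 to 26 after 90 days. Its trends in the crypt went from 0 to 2 after 7 days and from 3 to 5 after 90 days. Its differences between compartments in untreated mice went from 0 to 1 after 7 days and from 1 to 6 after 90 days, and those between days from 1 to 4. Its changes that differed between compartments went from 0 to 6, and those between days from 3 to 12. Of its calls against untreated, 2 of 2 in the crypt and 1 of 5 in the villus after 7 days, and 1 of 6 and 17 of 26 after 90 days, had fitted log2 changes past 10, where a group was at 0 counts. In the newer form of the fit, calls against untreated after 7 days rose to 2 in the crypt and 5 in the villus and those in the villus after 90 days fell to 6, trends became 2 in the crypt after 7 days and 2 in the villus after 90 days, and the difference between days in untreated mice fell to 0 and the changes that differed between days to 1. Without mouse 447 the villus after 7 days had 0 calls against untreated and 2 trends, untreated mice after 90 days 2 differences between compartments, and 5 changes differed between days, the added pair being Reg1 at 60 ppm in crypt and villus. It also moved the calls against untreated in the villus after 90 days from 10 to 12, by Reg3a at 20 and 180 ppm, and the members that differed between compartments over all concentrations after 7 days from 4 to 5, by Duox2. In the newer form without mouse 447, trends after 7 days were 2 in the crypt and 2 in the villus. Without mice 48 and 49 the villus after 7 days had 0 calls and 2 trends, and untreated mice had 0 differences between days. With size factors of DESeq2 in edgeR the latter was 0 too and 5 changes differed between days. With probes summed it was 0, and untreated compartments differed in 2 members after 90 days, as they did with thinned counts (2). With a mean count of at least 10, 4 calls were made in the villus after 7 days and 0 changes differed between days. With the acinar covariate 0 calls were made in the villus after 7 days. Separate fits gave 9 calls against untreated in the crypt after 90 days, 1 trend in the crypt after 7 days, and 2 in the villus after 7 days.

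With the mouse as a replicate block, which applies to crypt against villus, edgeR called 1 member in untreated mice after 7 days, 3 after 90 days, and 8 changes that differed between compartments, with the same counts (1, 3, and 8) without mouse 447. Its shared spread was below the own spread of Reg3g, Reg1, and Dmbt1 on both days. The block in limma-voom called 1 in untreated mice after 7 days, 2 after 90 days, 7 over all concentrations after 90 days, and 2 changes that differed between compartments, of which 1 was left without mouse 447 (the others were 1, 2, and 7). The other calls of the crypt against villus kept their side of the threshold in limma-voom, apart from Saa1 after 7 days without mouse 447.

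Leaving out 1 library at a time gave 0 to 1 calls against untreated in the crypt and 0 to 3 in the villus after 7 days, and 2 to 5 in the crypt and 2 to 11 in the villus after 90 days. Trends numbered 0 to 1 and 1 to 5 after 7 days and 2 to 4 and 4 to 7 after 90 days, in crypt and villus. Between compartments 0 to 1 members differed in untreated mice after 7 days and 0 to 2 after 90 days, and 3 to 5 and 3 to 4 over all concentrations. Between days 0 to 1 differed in untreated mice, and the changes that differed were 1 to 4 between days and 0 between compartments.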
